A study of Mus musculus with 6 samples.

Results

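The Schlafen genes of the mouse were described in the inflamed colon of Nedd4l fl/fl VillinCre (cKO) mice and their Nedd4l fl/fl (WT) littermates. The 7 members, Slfn1, Slfn2, Slfn3, Slfn4, Slfn5, Slfn8 and Slfn9, were chosen by gene family name out of 27202 genes in the deposited table, with their genotype values already in view. Their genotype differences are therefore given as a description with no test. The mice were on a C57BL/6J background, were 8 to 10 weeks of age and had received 2% dextran sodium sulfate (DSS) in their drinking water for 7 days, so no library came from an untreated colon. In cKO mice (3 libraries), Cre recombinase under the Villin promoter deleted floxed Nedd4l in intestinal epithelial cells (IECs), while WT mice (3 libraries) carried the same floxed allele without Cre. RNA came from whole colon tissue, which holds epithelium, immune cells, stroma and vessels together. The question was which Schlafen transcripts differed between the genotypes during colitis.

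Schlafen proteins take their name from the German word for sleeping, after the growth arrest that the founding member Slfn1 imposed on thymocytes. They share an RNase-like core, and several members cleave tRNA. The mouse proteins are grouped by length into short members (Slfn1, Slfn2), intermediate members (Slfn3, Slfn4) and long members that also carry a helicase-like C-terminal region (Slfn5, Slfn8, Slfn9). Many are induced by type I interferon, and Slfn2 is needed to keep T cells and monocytes quiescent.

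Nedd4l, the E3 ubiquitin ligase gene targeted in this design, had normalized counts of 476, 942 and 566 in cKO libraries 1 to 3 and of 1241, 1271 and 1266 in WT libraries 1 to 3. Every cKO library lay below every WT library, with a log2 difference of -0.99 (SE 0.24). Library cKO2 kept the highest Nedd4l value of its group. Its profile had a mean r of 0.977 with WT libraries and 0.966 with the other cKO libraries (across genes). These means were 0.948 and 0.963 for cKO1 and 0.973 and 0.975 for cKO3. The own-group mean of cKO2 thus includes cKO1, the library with the lowest mean r in both comparisons. The values of each library fell on whole multiples of 1 spacing, and the sums in that spacing, read here as depth, were 14914367 to 17547270. Epithelial markers were abundant in all libraries, with summed normalized counts of 291430 to 367346.

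The Schlafen cluster lay on chromosome 11 (GRCm38), where 8 listed Schlafen genes occupied 263.8 kb from 82951349 to 83215154, with 5 genes on the plus strand and 3 on the minus strand. In order along the chromosome these were Slfn5, Slfn9, Slfn8, the pseudogene Slfn10-ps, Slfn2, Slfn1, Slfn4 and Slfn3. The level of Slfn14, annotated further along at 83275110 to 83286726, was not analysed here, and only its annotated sequence was used. The promoters of the 3 long members are shown because Slfn9 and Slfn8 were close copies whose mean differences between the genotypes had opposite signs, and because these were the members with measured levels whose start regions held the interferon-stimulated response element (ISRE) core. Each sequence runs from 250 bases before to 50 bases after a transcription start in RefSeq (GRCm38.p6), 5′ to 3′ on the strand of the gene, and capitals mark the ISRE core, GAAANNGAA or its reverse complement TTCNNTTTC.
Slfn9, chr11:82991781-82992080, minus strand: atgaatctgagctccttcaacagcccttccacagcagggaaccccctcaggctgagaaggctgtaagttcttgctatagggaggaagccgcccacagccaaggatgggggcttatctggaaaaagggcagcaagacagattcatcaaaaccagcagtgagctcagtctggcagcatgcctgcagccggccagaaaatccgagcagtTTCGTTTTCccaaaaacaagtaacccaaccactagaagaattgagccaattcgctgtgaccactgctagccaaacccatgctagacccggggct
Slfn8, upstream start, chr11:83020761-83021060, minus strand: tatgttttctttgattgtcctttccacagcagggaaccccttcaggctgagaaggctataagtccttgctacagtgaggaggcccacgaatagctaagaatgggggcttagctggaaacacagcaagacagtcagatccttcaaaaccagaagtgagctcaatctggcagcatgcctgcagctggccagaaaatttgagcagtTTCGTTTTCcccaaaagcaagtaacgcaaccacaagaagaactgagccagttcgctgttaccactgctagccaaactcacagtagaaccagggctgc
Slfn5, chr11:82951852-82952151, plus strand: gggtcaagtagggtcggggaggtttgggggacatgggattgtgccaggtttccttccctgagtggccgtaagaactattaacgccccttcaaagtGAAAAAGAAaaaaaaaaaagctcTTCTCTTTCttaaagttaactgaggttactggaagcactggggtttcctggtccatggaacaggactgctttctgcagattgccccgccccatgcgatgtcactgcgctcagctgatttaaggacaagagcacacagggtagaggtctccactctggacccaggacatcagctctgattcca
The Slfn9 and Slfn8 windows were 88.3% identical over 273 aligned bases and held the same 9 letters, TTCGTTTTC, at 44 and 47 bases before their starts. The second annotated start of Slfn8 had the same match at 135 bases. The Slfn5 window held a pair of matches, GAAAAAGAA at 155 bases and TTCTCTTTC at 132 bases before the start. The Slfn14 window held GAAAGTGAA at 197 bases before its start. No ISRE core was found in the windows of Slfn1, Slfn2, Slfn3 or Slfn4. Among 32851 RefSeq promoters of this length, 8.56% held the core on either strand. Neither the GAS motif TTCNNNGAA (8.3% of promoters) nor the PU.1 motif GAGGAAGT (3.2%) was found in the window of any member. A match of letters is a description and does not show that a factor binds there.

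**Figure D1:**
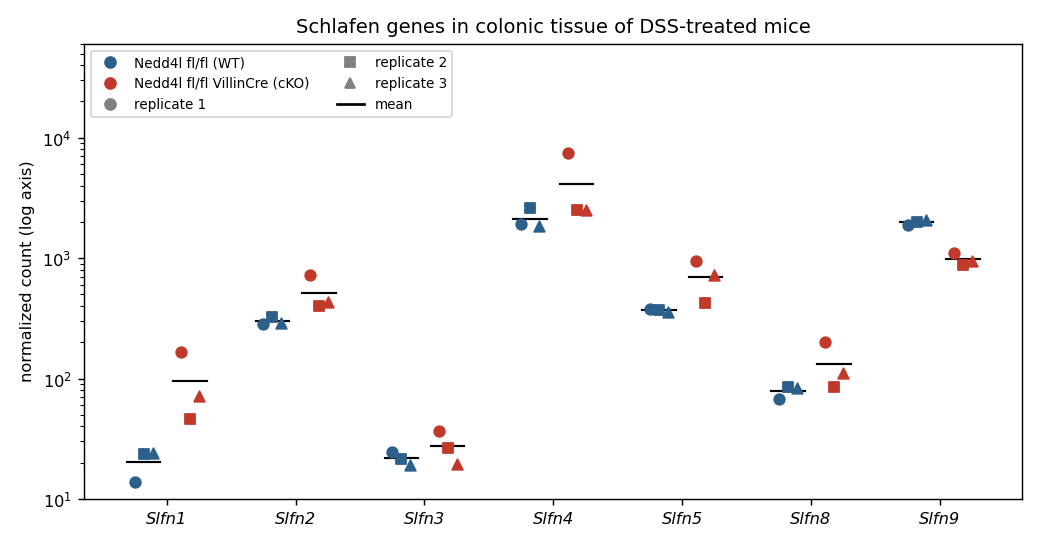
Normalized counts (log axis) of the 7 Schlafen members in each of the 3 WT (blue) and 3 cKO (red) libraries, with marker shape giving the replicate and a bar the group mean. Slfn9 sat at 880 to 1112 in cKO and at 1870 to 2081 in WT, while Slfn1, Slfn2 and Slfn5 sat higher in every cKO library than in any WT library.

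Slfn9 was the member with lower transcript levels in cKO colon, and Slfn1, Slfn2 and Slfn5 were higher in cKO. In the other 3 members, Slfn3, Slfn4 and Slfn8, the cKO mean was higher but the libraries of the genotypes overlapped. All 7 passed the filter of a mean normalized count of at least 10, as did 16246 genes in all. In the fit over these genes, 0.0% were called at an adjusted p under 0.05 in either direction, and the smallest adjusted p of any gene was 0.111 (limma). At an unadjusted p under 0.05, 7.08% of genes were lower and 6.91% were higher in cKO. Of all genes, 10.5% had every cKO library above every WT library (3 members) and 10.9% had every cKO library below (1 member). Since the members were chosen with these values known, nothing is read from their counts. The middle 95% of log2 differences over all genes spanned -0.78 to 1.03, around a median of 0.0013. In bulk tissue, fewer cells of a type and less RNA per cell cannot be told apart, and this holds for every value below. The labels name the libraries only by genotype and number, so the errors measure the spread between these libraries.

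Slfn9, a long Schlafen gene (ENSMUSG00000069793, chromosome 11, 82978390 to 82991830, minus strand), had normalized counts of 1112, 880 and 941 in the cKO libraries and of 1870, 1981 and 2081 in the WT libraries. The groups were far apart: the highest cKO library was at 1112 and the lowest WT library at 1870. The means were 977.6 ± 120.3 (SD, n = 3) in cKO and 1977 ± 105.3 (SD, n = 3) in WT, a ratio of 0.494. The log2 difference of -1.02 (SE 0.10), on the log2(value + 1) scale used for every difference here, ranked 198th from the lowest of 16246 genes. The SE was the smallest in the family, and the difference was -1.12 without library cKO1, -0.95 without cKO2 and -1.0 without cKO3. The microRNA gene Mir7679, which lies within Slfn9 on the same strand, was listed at 1.92 to 4.42 in cKO and 4.94 to 7.99 in WT, under the filter.

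Slfn8, a long gene adjacent to Slfn9 on the same strand (ENSMUSG00000035208, 83002158 to 83020810), had normalized counts of 199, 85.1 and 110 in cKO and of 68.1, 85.5 and 83.9 in WT. Library cKO2 fell within the WT range and cKO1 stood well above all the others. The means were 131.6 ± 60.0 in cKO and 79.16 ± 9.58 in WT (SD, n = 3 each), a log2 difference of 0.64 (SE 0.31). The ratio of Slfn9 to Slfn8 counts was 5.58, 10.3 and 8.52 in cKO and 27.5, 23.2 and 24.8 in WT, so the balance of these neighbours did not overlap between genotypes.

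Slfn8, Slfn9 and Slfn10-ps are close copies, which bears on how their reads could be assigned. The longest annotated transcripts of Slfn8 and Slfn9 were 92.3% identical over 3728 aligned bases. Of the 50-base stretches in the Slfn8 transcript, 15.4% also occurred in another Schlafen transcript, against 11.2% for Slfn9, 19.7% for Slfn10-ps and 0% for Slfn5. At 100 bases the shares were 3.71% for Slfn8 and 3.90% for Slfn9. How shared reads were counted is not given in the sources used here, so the levels of these 3 genes are uncertain to that extent. Slfn10-ps, the pseudogene between them and Slfn2, had normalized counts of 65.2, 19.9 and 36.1 in cKO and 30.6, 17.1 and 23.0 in WT, which overlapped (log2 difference 0.63, SE 0.45).

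Slfn5, the long member known as a nuclear regulator of interferon-driven transcription (ENSMUSG00000054404, 82951349 to 82964840, plus strand), had normalized counts of 954, 426 and 717 in cKO. Its WT values were 381, 372 and 355, and their CV of 3.54% was the smallest in the family. All cKO libraries were higher, although cKO2 cleared the highest WT library by little. The means were 698.8 ± 264.5 in cKO and 369.7 ± 13.08 in WT (SD, n = 3 each), a ratio of 1.89 and a log2 difference of 0.84 (SE 0.28). The ratio of Slfn9 to Slfn5 was 1.17, 2.07 and 1.31 in cKO against 4.91, 5.32 and 5.85 in WT. An antisense transcript is annotated across Slfn5, and whether the counting used strand is not given in the sources used here.

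Slfn1 and Slfn2 are the short members. Slfn1, the founding growth inhibitor (ENSMUSG00000078763, 83116849 to 83122670, plus strand), had normalized counts of 167, 46.4 and 71.2 in cKO and of 13.8, 23.4 and 24.0 in WT. It was the member with the greatest fold difference: every cKO library was higher, and the means were 94.8 ± 63.56 and 20.39 ± 5.70 (SD, n = 3 each), a ratio of 4.65. The log2 difference was 2.00 (SE 0.48) and ranked 90th from the highest of 16246 genes. Slfn2, the lymphocyte and monocyte quiescence factor (ENSMUSG00000072620, 83065112 to 83070678, plus strand), had normalized counts of 722, 397 and 431 in cKO and of 282, 321 and 292 in WT. All cKO libraries were again higher, with means of 516.6 ± 178.5 and 298.4 ± 20.25 (SD, n = 3 each) and a log2 difference of 0.74 (SE 0.22). The antisense gene Gm20234 overlaps Slfn2 and had values of 1 to 9.

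Slfn4 and Slfn3 are the intermediate members. Slfn4, a gene of activated myeloid cells (ENSMUSG00000000204, 83175186 to 83190216, plus strand), was the most abundant member, with normalized counts of 7433, 2504 and 2519 in cKO and of 1936, 2586 and 1835 in WT. A single library, cKO1, held the excess: cKO2 and cKO3 lay below WT2. The means were 4152 ± 2841 in cKO and 2119 ± 407.8 in WT (SD, n = 3 each), and the log2 difference was 0.78 (SE 0.46). Slfn3, which has been tied to enterocyte differentiation in rodents (ENSMUSG00000018986, 83191330 to 83215154, plus strand), was the least abundant. Its normalized counts were 36.4, 26.5 and 19.6 in cKO and 24.7, 21.6 and 19.0 in WT, and the genotypes overlapped (log2 difference 0.29, SE 0.32). The transcripts of Slfn3 and Slfn4 were 94.9% identical over 1376 aligned bases, so part of their reads could be shared.

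Library cKO1 was the highest of all libraries for each of the 6 members other than Slfn9. Without it, the log2 difference was 1.49 for Slfn1, 0.58 for Slfn5, 0.47 for Slfn2, 0.30 for Slfn8, 0.26 for Slfn4 and 0.07 for Slfn3. Slfn1, Slfn2 and Slfn5 still had both cKO libraries above all WT libraries, beside 15.1% of all genes. For Slfn9 both were still below, beside 15.6% of all genes.

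**Figure D2:**
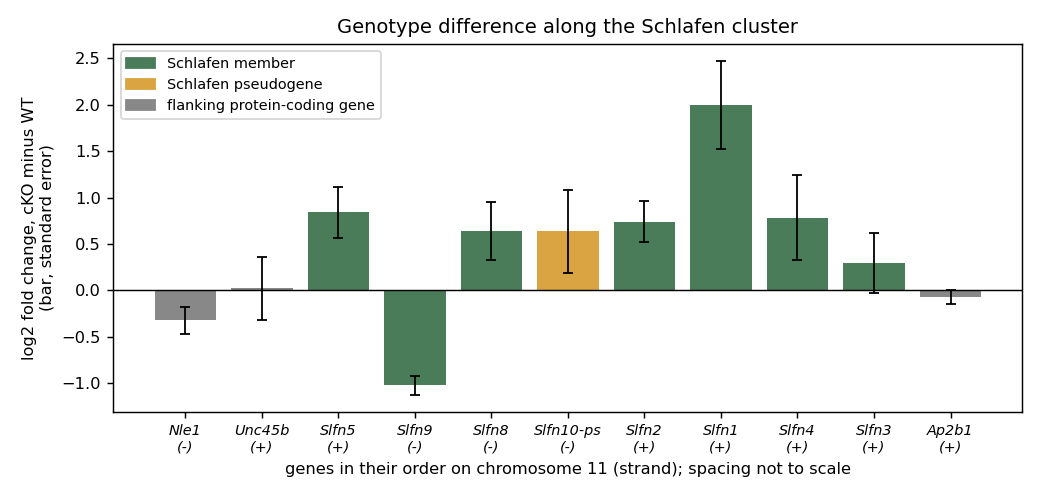
Log2 difference between cKO and WT (bars, with the standard error) for the tested Schlafen genes and 3 flanking protein-coding genes in their order on chromosome 11, with spacing not to scale. Slfn9 at -1.02 was the single Schlafen gene below 0 and stood between Slfn5 at 0.84 and Slfn8 at 0.64, whereas the 3 flanking genes ran from -0.32 to 0.02.

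The genes at the edges of the cluster were compared for context. Unc45b, a myosin chaperone gene next to Slfn5, differed by 0.02, and on the other side Ap2b1, a clathrin adaptor gene, differed by -0.07. Nle1, a ribosome assembly gene, had all cKO libraries (238 to 249) below the WT libraries (267 to 366), with a difference of -0.32 (SE 0.15). Fndc8 and Rasl10b were under the filter. The lincRNA 1190001M18Rik between Slfn5 and Slfn9 overlapped between genotypes (-0.44, SE 0.33). Slfnl1, a Schlafen-like gene on chromosome 4, was listed at 0 to 4.94 and was not tested.

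The family total stayed at a like level in 5 libraries while its composition differed by genotype. The summed normalized count of the 7 members was 10623, 4365 and 4809 in cKO and 4576, 5392 and 4690 in WT, so cKO1 alone stood apart. Slfn9 made up 10.5%, 20.2% and 19.6% of that sum in cKO and 40.9%, 36.7% and 44.4% in WT. Slfn4 made up 70.0%, 57.4% and 52.4% in cKO and 42.3%, 48.0% and 39.1% in WT. Together with the lower Slfn9 share, the Slfn1, Slfn2, Slfn5 and Slfn8 shares were higher in every cKO library than in any WT library. Mean shares for Slfn1 were 1.37% ± 0.27 in cKO and 0.42% ± 0.11 in WT (SD, n = 3 each). Shares of 1 sum are not independent of each other.

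**Figure D3:**
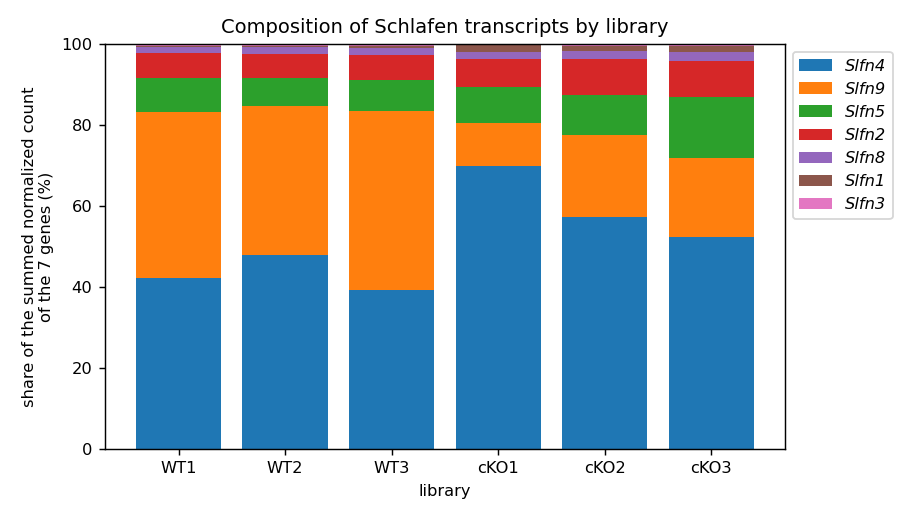
Share (%) of each member in the summed normalized count of the 7 members, stacked for each WT and cKO library. Slfn9 took 36.7% to 44.4% of the sum in WT libraries and 10.5% to 20.2% in cKO libraries, and Slfn4 took 39.1% to 48.0% and 52.4% to 70.0%.

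Levels of different genes were compared as normalized counts per kb of merged exon length. In each of the 3 WT libraries the order was Slfn4, Slfn9, Slfn2, Slfn5, Slfn8, Slfn1 and Slfn3, with mean levels of 535, 332, 179, 58.4, 19.4, 10.9 and 6.38 per kb, and no neighbours in this order had overlapping ranges. In each of the 3 cKO libraries the order was Slfn4, Slfn2, Slfn9, Slfn5, Slfn1, Slfn8 and Slfn3. Slfn2 and Slfn9 had thus exchanged places, as had Slfn1 and Slfn8. Mean cKO levels were 1050, 310, 164, 110, 50.9, 32.2 and 8.07 per kb in that order, and the ranges overlapped between Slfn9 and Slfn5, Slfn5 and Slfn1, and Slfn1 and Slfn8.

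The genes most like each member were the protein-coding genes with the smallest root-mean-square distance between centred log2 profiles over the 6 libraries, out of 13915 candidates. This measure includes the genotype contrast and is a description. For Slfn9 they were Dtl (distance 0.0675), which targets proteins for destruction in S phase, Pole (0.0747), a catalytic subunit of a replicative DNA polymerase, and Uhrf1 (0.0867), which maintains DNA methylation at replication forks. Dtl had normalized counts of 314, 265 and 261 in cKO and 507, 543 and 637 in WT, a log2 difference of -1.0. Uhrf1 had 1059, 864 and 848 in cKO and 1530, 1902 and 1938 in WT, a difference of -0.95. No other Schlafen gene resembled Slfn9 as these did: its nearest member was Slfn3 at 0.700, and 11227 of the candidates were nearer.

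The genes nearest to the other 6 members had varied known roles. The nearest to Slfn5 were Nr1d2 (0.0657), a clock repressor, Ifitm3 (0.086), an interferon-induced antiviral membrane protein, and Mmp28 (0.0866), a metalloproteinase. Those of Slfn2 were Pmepa1 (0.0793), a TGF-β-induced gene, Cebpb (0.0988), a myeloid and inflammatory transcription factor, and Parp14 (0.0998), an interferon-inducible ADP-ribosyltransferase. Slfn1 was nearest to 5730507C01Rik (0.181), Fpr2 (0.257), a formyl peptide receptor of phagocytes, and Ctla2a (0.260). Slfn4 was nearest to Stx11 (0.0759), a syntaxin of immune cells, with Smoc1 and Fgf12 next (0.147 each). Slfn8 was nearest to Dgat2 (0.0526), a triglyceride synthesis enzyme, followed by Sncaip (0.0647) and Col27a1 (0.0853), a fibrillar collagen gene. Slfn3 had Ccdc88a, Tmem100 and Avpr1a nearest, at 0.0837 to 0.0923. Among the members themselves, Slfn2 and Slfn8 were closest to each other (0.137), with 26 other genes nearer to Slfn2 and 15 nearer to Slfn8.

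Because replication genes led the Slfn9 neighbours, lists of 31 DNA replication genes, 20 mitosis genes and 10 crypt stem cell genes were added after these values were seen, leaving out Dtl, Pole and Uhrf1. All 31 replication genes had a log2 difference below 0, from -0.85 to -0.02 with a median of -0.61, and 26 had every cKO library below every WT library, beside 10.9% of all genes. As the list was chosen after the neighbours of Slfn9 were seen, it is no independent support. None was called at an adjusted p under 0.05 (limma). Mcm2, a subunit of the replicative helicase, had 1014, 880 and 771 in cKO and 1269, 1370 and 1405 in WT (-0.61). The mitosis genes split into 11 higher and 9 lower, with a median of 0.06. Of 9 stem cell genes tested, 7 were lower and 2 higher (median -0.29), and the stem cell marker Lgr5 had 39.3, 82.9 and 129 in cKO and 111, 137 and 101 in WT. The Slfn9 count was also divided by sums of listed genes, and what these ratios reflect was not tested. They depend on the genes chosen. Dtl, Pole and Uhrf1, left out of the replication list, differed by -1.0, -0.96 and -0.95, near the -1.02 of Slfn9. The Slfn9 count was 5.74%, 5.36% and 6.15% of the summed replication genes in cKO and 7.94%, 7.46% and 7.78% in WT. It was 0.382%, 0.240% and 0.288% of the summed epithelial markers in cKO and 0.515%, 0.548% and 0.617% in WT.

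**Figure D4:**
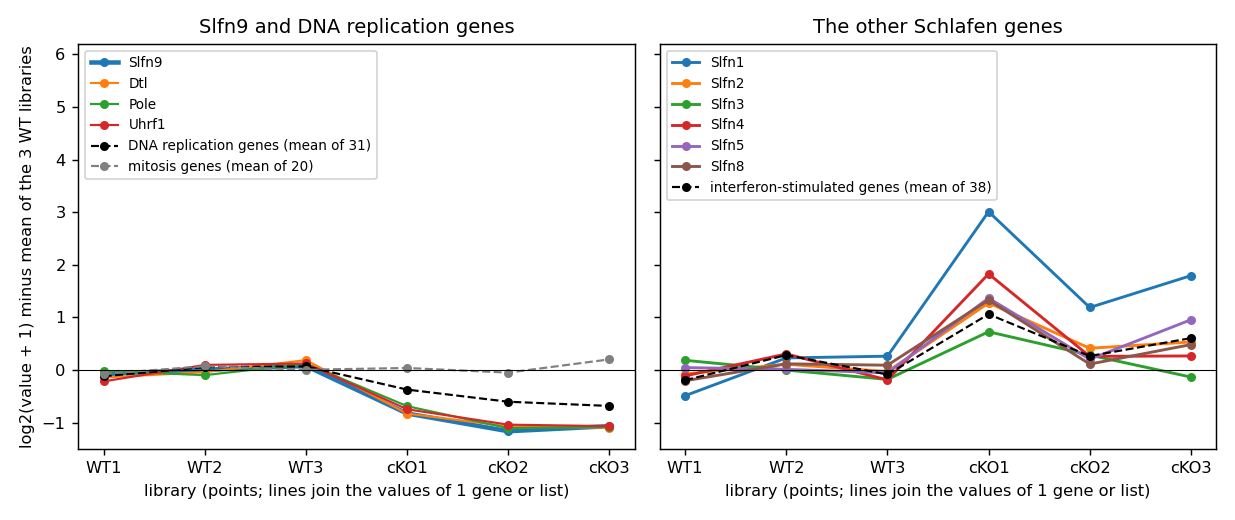
Log2(value + 1) in each library minus the mean of the 3 WT libraries, for Slfn9 with its 3 nearest genes and the means of the replication and mitosis lists (left), and for the other members with the mean of the interferon-stimulated list (right). Slfn9, Dtl, Pole and Uhrf1 drop together in all cKO libraries while the mitosis mean stays between -0.07 and 0.20, and in the right panel cKO1 is the highest library for every line.

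Interferon-stimulated genes were the list most closely tied to the family by background knowledge. Of 38 such genes tested, 37 were higher and 1, Rsad2, was lower in cKO. The median log2 difference was 0.50 (0.35 without cKO1, 0.38 without WT1, 0.62 without cKO2 and 0.65 without WT2). At an unadjusted p under 0.05 (limma) 17 genes were higher, beside 6.91% of all genes. Every cKO library was above every WT library in 19, beside 10.5% of all genes, and 0 were called after adjustment. Ifi27l2a, an interferon-induced gene, had the smallest p of the list, at 331, 245 and 230 in cKO against 80.0, 59.4 and 121 in WT (difference 1.66, limma adjusted p = 0.137). Ddx58, the RIG-I RNA sensor gene, differed by 0.51 (adjusted p = 0.192), Stat2 by 0.50 (0.215) and the guanylate-binding protein gene Gbp3 by 1.01 (0.264, all limma adjusted p). The list mean by library, relative to WT, was 1.06, 0.26 and 0.60 in cKO1 to cKO3 and -0.20, 0.28 and -0.09 in WT1 to WT3. Every member but Slfn3 had the same order of cKO libraries, with cKO1 highest and cKO2 lowest, Slfn9 included although all of its cKO values were below WT. This order was not particular to these genes, since the summed stromal and muscle markers and the summed endothelial markers had it too. In the list mean WT2 exceeded cKO2, whereas Slfn1, Slfn2 and Slfn5 were higher in cKO2 than in WT2.

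Interferon ligands and receptors were measured in part. The 9 genes tested were receptor genes and the kinase genes Jak1, Jak2 and Tyk2. All 9 were higher in cKO, by 0.001 (Ifnlr1) to 0.56 (Ifnar2) with a median of 0.22. Of these, 1, Ifngr2, was higher at an unadjusted p under 0.05, beside 6.91% of all genes (difference 0.29, limma adjusted p = 0.257). Jak2, Ifnar1 and Ifnar2 differed by 0.23, 0.22 and 0.56. The ligand genes Ifnb1, Ifna4, Ifng, Ifnl2 and Ifnl3 were not tested, since they were under the filter or not in the table.

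Lists that follow other known roles of Schlafen proteins had medians nearer 0. Among 10 genes of tRNA cleavage and its control, 3 were higher and 7 lower (median -0.11). Of these, 1, the tRNA 3′ processing gene Elac2, was lower at an unadjusted p under 0.05, beside 7.08% of all genes (difference -0.28, limma adjusted p = 0.280). Rnh1 and Trmt1 differed by 0.14 and -0.13. Among 13 lymphocyte quiescence genes, 6 were higher and 7 lower (median -0.03, and between -0.065 and 0.056 when 1 library was left out), led by Foxp1 at -0.28 and Tob1 at -0.22, with Foxo3 at -0.25. Of 12 enterocyte differentiation genes tested, 2 were higher and 10 lower (median -0.19, or -0.058 without cKO1 and -0.11 without WT1), with Cdx1 at -0.24, Dpp4 at -0.38 and Klf4 at -0.33, and 0 passed an unadjusted p of 0.05. No gene of these 3 lists was called after adjustment (limma).

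Levels of cell type markers are given because some differed between libraries along with the members, and their part in the Schlafen values was not tested. The 13 tested neutrophil markers summed to 11516, 3112 and 3708 in cKO and 3065, 3334 and 3293 in WT, so that cKO2 lay within the WT range. Most of that sum in 5 libraries was Ly6g, a surface marker of granulocytes, at 2486, 2832 and 2200 in cKO and 2829, 3136 and 3064 in WT. Ly6g was the 1 marker lower in cKO (log2 difference -0.27, SE 0.10). Because of its size, the sum of the other 12 genes is given as well, a choice made after the values were seen. It was 9030, 280 and 1508 in cKO and 236, 198 and 229 in WT, with 0, 1 and 0 of these genes listed at 0 in cKO and 1, 0 and 3 in WT. Every member but Slfn3 ranked the cKO libraries in the same order as both sums. The summed stromal and muscle markers and endothelial markers had this order too, while the monocyte and macrophage, T cell, B cell and epithelial sums did not. The share of all genes with this order is not given, so nothing is read from it. In cKO2, Slfn1, Slfn2 and Slfn5 were above all WT libraries, as was the sum without Ly6g (280 against 236, 198 and 229). Of the 13 neutrophil genes, 12 were higher in cKO (median 3.34, or 1.8 without cKO1). At an unadjusted p under 0.05 (limma) 5 were higher, beside 6.91% of all genes, and 1, Ly6g, was lower, beside 7.08%. Cxcr2 had 181, 4.42 and 20.6 in cKO and 0, 2.70 and 0 in WT. Trem1 (log2 difference 3.44), Mmp8 (4.64) and Mmp9 (2.81) were the other leading markers, each highest in cKO1. Mmp8 had 406, 6.63 and 36.1 in cKO and 2.96, 0.90 and 0 in WT.

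Monocyte and macrophage markers summed to 33521, 29971 and 28489 in cKO and 24964, 22999 and 24485 in WT, with 0 of 16 genes listed at 0 in any library. Most of that sum in each library was Plac8, at 19494, 15221 and 15385 in cKO and 12766, 14829 and 13570 in WT. Of the 16 genes, 15 were higher (median 0.36, or 0.62 without WT1). At an unadjusted p under 0.05 (limma) 7 were higher, beside 6.91% of all genes, among them Ly6c2 (1.63, limma adjusted p = 0.137), Fcgr1 (1.03) and Ccr2 (1.11). Chil3 was another (5.10, SE 1.29), at 1002, 46.4 and 93.9 in cKO against 10.9, 0.90 and 3.99 in WT, so its size rests on cKO1 and on low WT values. Csf1r (0.10), Adgre1 (0.16), C1qa (0.30), C1qb (0.42) and C1qc (0.21) overlapped between genotypes, as did Ms4a7, the 1 gene lower (-0.06). T cell markers were 6 higher and 8 lower (median -0.04, and between -0.19 and 0.11 when 1 library was left out), with Thy1 at 0.50 and Cd3e at -0.45, and summed to 1381 to 1746 in cKO and 1262 to 1714 in WT. All 12 B cell markers were higher (median 0.35, or -0.034 without cKO1 and 0.021 without WT1, against 0.63 without cKO3 and 0.69 without WT3), with 0 at an unadjusted p under 0.05. Epithelial markers were 3 higher and 13 lower (median -0.08, or -0.20 without cKO2 and -0.13 without WT3), with Krt19 at -0.22 and Slc26a3 at -0.69, and summed to 291430 to 367346 in cKO and 337447 to 363320 in WT. Stromal and muscle markers were 6 higher and 5 lower (median 0.13, or 0.083 without cKO2, 0.44 without WT1 and 0.31 without WT2), led by Col1a2 at 0.98 and Col1a1 at 1.14. The 6 higher were Col1a1, Col1a2, Col3a1 (1.08), Pdgfra (0.55), Dcn (0.78) and Lum (0.13). The 5 lower were the muscle genes Des (-0.62), Cnn1 (-0.62), Tagln (-0.47), Myh11 (-0.21) and Acta2 (-0.06), each with overlapping genotypes. The list median thus mixes 2 directions. Endothelial markers were 7 higher and 1 lower (median 0.52, or 0.23 without cKO1), with Emcn at 0.70 and Esam at 0.67. In the 5 lists from T cell to endothelial markers 0 genes were called after adjustment (limma), as in the neutrophil and macrophage lists.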

How the data were processed

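Colon RNA was sequenced in 3 cKO and 3 WT libraries after NEBNext Ultra library preparation. The submitters' processing notes name HISAT2 2.0.5, featureCounts 1.5.0-p3 and the build hg18 without their roles. The coordinates in the table are those of GRCm38. The deposited signal values are gene counts that the authors normalized between libraries, by a method not given in the sources used here. How reads shared by copies of a gene were counted, and whether strand was used, is likewise not given. Columns with the authors' own fold changes and p-values were not used. Gene names and coordinates are those of the deposited table, transcripts are from GENCODE M21 and promoters from RefSeq.

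Genes with a mean of at least 10 were tested on log2(value + 1) with limma 3.58.1 (R 4.3.3; trend, robust, genotype only), with Benjamini-Hochberg adjustment over all genes tested. The code was tested on simulated data. Members, lists and tests were chosen with earlier results of these data known. In each list the 4 tested genes with the smallest p were named, and for each member the 3 nearest protein-coding genes. Some genes that this rule names are not reported here. The lists of DNA replication, mitosis and stem cell genes, and Mcm2 and Lgr5 as examples from them, were chosen after the values were seen, as were Rsad2 and the other genes named outside the rule. Sequences were aligned with Biopython 1.88, and pandas 2.3.3 and matplotlib 3.10.9 were used under Python 3.11.15. The alternatives covered filters, pseudocount, scaling, library weights, a replicate block and leaving out each library.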

Additional observations from a re-analysis of the deposited data

How the results depend on the processing

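Over 14 alternatives the log2 difference ranged from -1.12 to -0.95 for Slfn9, 1.49 to 2.40 for Slfn1, 0.47 to 0.90 for Slfn2, 0.58 to 1.16 for Slfn5, 0.30 to 0.91 for Slfn8, 0.26 to 1.05 for Slfn4 and -0.00089 to 0.50 for Slfn3, which reversed to -0.00089 with library weights. The weight was 0.414 for cKO1, 0.562 for cKO2 and 4.39 for cKO3, so that fit rests mostly on cKO3 among the cKO libraries. The number of genes called at an adjusted p under 0.05 was 0 in the fit reported, 23 lower and 7 higher with no filter, and 369 lower and 262 higher with library weights. Leaving out 1 library gave 0 to 52 lower and 0 to 70 higher, with 22 lower and 2 higher without cKO1 and 52 lower and 70 higher without cKO2. With the replicate number as a replicate block, 0 genes were called in either direction. Same-numbered libraries had deviations correlated at -0.029, -0.09 and -0.056. The labels give them only a number in common, and whether they shared more was not tested. The median of the stromal and muscle list ranged from 0.083 to 0.44 when 1 library was left out. The median of the B cell list fell to -0.11 with library weights and to -0.034 without cKO1, and the cause was not tested. With library weights the medians were 0.29 for the endothelial list, -0.098 for the enterocyte list and 0.36 for the stromal list. The T cell and quiescence list medians, near 0, also changed sign when single libraries were left out. The planned count models were not run, because whole reads were not established for 1 library (WT3). Slfn3 was too low for the stricter filter of a mean of 50. With 3 libraries a group, and cKO1 and cKO2 differing from each other in most members, small differences could not be resolved.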
